A study of Rattus norvegicus with 8 samples.

Results

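The hippocampus was compared with a mixed brain reference through the ratio measured for every gene on all 8 arrays of the series, 8 of 8 samples. Values are log2 ratios of a hippocampal pool to the reference hybridised on the same array, so that 1 is a 2-fold higher signal in the pool and -1 a 2-fold lower one. Arrays were made from 13-week-old male Wistar rats with a monopolar steel electrode aimed at the lateral hypothalamus of the right hemisphere. In the intracranial self-stimulation (ICSS) group, rats trained in sessions of 20 min self-administered 2500 trains of current. In the Sham group, implanted rats were handled in the same box, also with training sessions of 20 min. They spent 40 min there in the last session without current. Each group had 4 pools of 3 rats, the hippocampi came from the side of the electrode, and all rats had recovered for 7 days after surgery. The sources used here do not give the time from session to tissue collection.

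The reference was 1 RNA shared by all 8 arrays. The labels of its channel give tissue of hippocampus, thalamus and cortex from the side opposite the electrode, and the design text names hippocampus alone, ipsilateral to the electrode, from 3 rats of each group. Where hippocampus is part of the reference, a ratio understates the difference between hippocampus and the other tissue in it. Pools carried Cy5 and the reference Cy3 on every array, so a dye effect on a gene and a tissue difference cannot be told apart. The reference's own spread is not in any error given here, and in bulk tissue fewer cells of a type and less RNA per cell cannot be told apart.

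The hippocampus is a sheet of cortex folded into the dentate gyrus, whose granule cells send mossy fibres to CA3, and the CA fields, whose pyramidal cells are excitatory and use the vesicular glutamate transporter Slc17a7. Thalamic relay neurons are excitatory too, but load glutamate with the related transporter Slc17a6 and follow another set of transcription factors, among them Tcf7l2. A common reference design measures each sample against the same RNA, which makes samples comparable with each other and also gives, for every gene, a ratio between the sampled tissue and the mixture.

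Of 34738 genes and unnamed probes tested, 14696 differed between hippocampus and reference (42.3%). Of these, 6081 had a higher signal in hippocampus than in the reference (17.5%) and 8615 a lower one (24.8%), by limma with Benjamini-Hochberg adjustment at a threshold of 0.05. The called differences were mostly small, with a median size of 0.228. A 2-fold difference was reached by 278 on the higher side (0.8%) and 481 on the lower side (1.38%), and a 4-fold difference by 46 (0.132%) and 66 (0.19%). Among the 14871 genes with a symbol 69 were at least 2-fold higher (0.464%) and 141 lower (0.948%), and 2 were at least 4-fold higher (0.0134%) and 17 lower (0.114%). The 69 and 141 were chosen by the mean of these same 8 pools, which favours pools on 1 side of 0. All 8 pools lay above 0 for each of the 69, and below 0 for 136 of the 141. The exceptions were Sostdc1, Spp1, Kcnj13, Rxrg and Ces1d. Arrays had medians between -0.032 and 0.016 and correlated at 0.586 to 0.873. Sham replicate 4 stood apart, at 0.586 to 0.779, and was the lowest pool for 34 of the 69 higher genes and the nearest to 0 for 67 of the 141 lower genes. Features of 1 gene can share 1 accession, as the 10 of Prkcd and the 11 of Adora2a did. Their agreement is then not independent support. Of the 210 genes past 2-fold, 155 rest on 1 feature. Of the other 55, chosen by the mean of these same features, 54 had all features on 1 side of 0 (98.2%). Over all 2921 called genes with 2 or more features, 2383 did (81.6%), and the features of 94 genes, called or not, differed by over 1 log2 unit. Among the genes described below these include S100b (-1.21 to -0.01), Ttr (-1.56 to -0.24), Nr3c2 (0.31 to 1.50) and Bhlhe22 (0.37 to 1.77), and features of Man1a1, Aqp4, Slc1a3, Vcan and Flt1 lay on both sides of 0.

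Neurod6 and Slc17a6 stand for the opposite ends of these ratios. Neurod6 encodes a basic helix-loop-helix factor of pyramidal neurons and lies on chromosome 4, with the promoter window at chr4:86180106-86180405 on the minus strand. Slc17a6 lies on chromosome 1, with its window at chr1:110348197-110348496 on the plus strand. Both windows are RefSeq sequences of the GRCr8 build over 300 bases around the start of the gene, written 5′ to 3′ on the strand of the gene, and they are shown to set the promoter of a gene high in hippocampus beside that of a gene low in it. Capitals mark matches to CAGATG, an E-box bound by NEUROD proteins, in the first and to CTTTGA, the core bound by the TCF and LEF family, in the second.
Neurod6: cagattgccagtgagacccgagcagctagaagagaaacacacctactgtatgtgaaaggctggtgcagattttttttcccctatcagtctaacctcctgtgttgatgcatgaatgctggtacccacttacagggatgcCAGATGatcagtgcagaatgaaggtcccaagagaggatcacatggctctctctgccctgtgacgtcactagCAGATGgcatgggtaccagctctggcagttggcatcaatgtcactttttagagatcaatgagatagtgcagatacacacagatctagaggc
Slc17a6: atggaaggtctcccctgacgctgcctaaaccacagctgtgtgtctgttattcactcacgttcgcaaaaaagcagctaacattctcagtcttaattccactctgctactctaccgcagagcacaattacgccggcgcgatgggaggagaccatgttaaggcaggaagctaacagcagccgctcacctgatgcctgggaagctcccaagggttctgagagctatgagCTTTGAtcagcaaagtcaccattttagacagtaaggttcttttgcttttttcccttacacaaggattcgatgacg

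Both motifs and the TATA sequence TATAAA were searched on both strands in every promoter of the table. None of the 3 contains another. Of the 20 highest and 20 lowest genes described below, 14 and 15 matched a promoter. CAGATG was in 3 of the 14 and 5 of the 15, against 16.3% of 27457 promoters. CTTTGA was in 0 of 14 and 2 of 15, against 15.9%, and TATAAA in 0 of 14 and 5 of 15, against 14.3%. The windows of C1ql2 and Wnt4 held 0 matches to these motifs, and those of Frem3 and Prkcd 1 each, so the windows printed above are not typical of all. These matches describe letters in a window only.

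The 6 marker genes given for these tissues lay far from 0. They and the lists below were chosen with earlier results of these data known. Their distance from 0 is therefore not an independent finding. Neurod6 was at 1.95, 1.93, 1.69 and 1.50 in the ICSS pools and at 1.77, 1.84, 1.76 and 1.39 in the Sham pools. C1ql2, a secreted C1q-like protein that dentate granule cells place at mossy fibre synapses, was at 1.80, 1.81, 1.76 and 1.95 in the ICSS pools and at 2.47, 2.24, 2.19 and 2.75 in the Sham pools. Both were above 0 in all 8 pools, and the groups overlapped for Neurod6 and not for C1ql2. The fitted mean ratio was 1.73 for Neurod6 (SE 0.062, limma adjusted p = 1.01e-08) and 2.12 for C1ql2 (SE 0.057, limma adjusted p = 1.26e-09), the highest of any named gene. The difference between ICSS and Sham was not called for C1ql2 (limma adjusted p = 0.123 over all genes and probes).

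The thalamic markers lay at the other end. Slc17a6 was at -2.56, -2.55, -2.00 and -3.04 in the ICSS pools and at -3.02, -2.81, -2.59 and -1.85 in the Sham pools, a mean of -2.55 (SE 0.13, limma adjusted p = 1.61e-07). Prkcd, a protein kinase C abundant in thalamic relay neurons, was at -2.45, -2.78, -1.71 and -2.40 in the ICSS pools and at -2.41, -2.65, -2.89 and -2.98 in the Sham pools, a mean of -2.53 (SE 0.10, limma adjusted p = 2.86e-08). For both genes every pool was below 0 and the groups overlapped, with ICSS replicate 3 nearest to 0 for Prkcd and Sham replicate 4 for Slc17a6. Probes of these genes were printed many times on the array. The 10 features of Prkcd ranged from -2.59 to -2.47, and 10 of the 11 of Slc17a6 from -2.81 to -2.71, while the last one, made to another accession, was at -0.37.

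Pmch and Adora2a mark regions that the labels do not name in the reference. Pmch, the precursor of melanin-concentrating hormone in neurons of the lateral hypothalamus and zona incerta, was at -5.43, -5.60, -5.68 and -6.23 in the ICSS pools and at -6.21, -6.15, -5.90 and -6.16 in the Sham pools. Its mean of -5.92 (SE 0.077, limma adjusted p = 3.72e-11) was the lowest of all 34738 units, a signal 60.5-fold lower in hippocampus, from 1 feature. Adora2a, the adenosine receptor of striatal projection neurons of the indirect pathway, was at -1.99, -1.98, -2.08 and -2.06 in the ICSS pools and at -2.38, -2.30, -2.33 and -2.32 in the Sham pools. Its mean was -2.18 (SE 0.026, limma adjusted p = 3.69e-11), its 11 features ranged from -2.30 to -1.44, and its groups did not overlap, while those of Pmch did. The ICSS minus Sham difference of Adora2a was 0.31 and was not called (limma adjusted p = 0.0897).

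**Figure D1:**
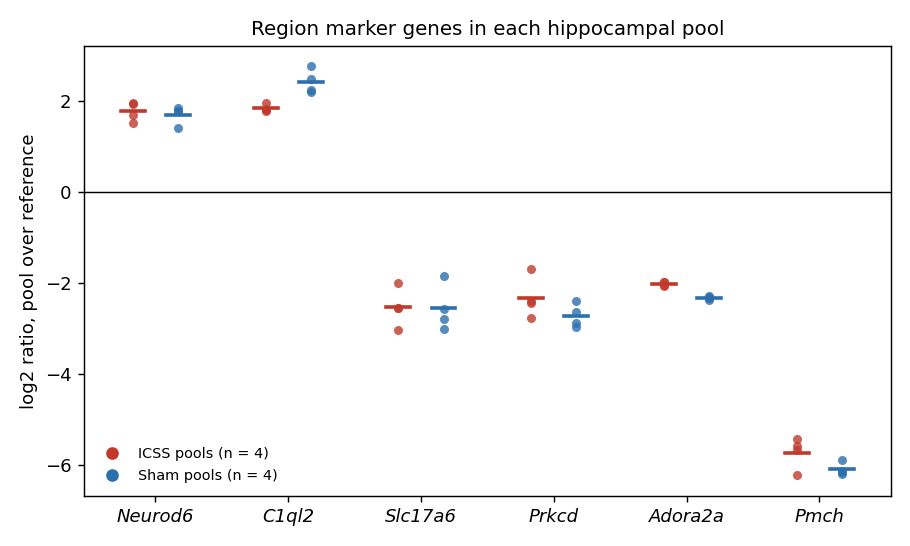
Log2 ratio of pool to reference (vertical axis) for 6 region marker genes, with 1 point for each of the 4 ICSS pools (red, left) and the 4 Sham pools (blue, right) and a bar at each group mean. Neurod6 and C1ql2 lie above 0 in all 8 pools, and Slc17a6, Prkcd, Adora2a and Pmch below 0 in all 8.

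The 20 highest named genes with all 8 pools above 0 had mean ratios from 1.41 to 2.12. After C1ql2 came Frem3, an extracellular matrix protein, at 2.10 (SE 0.11), with 2.64, 2.18, 1.53 and 2.20 in the ICSS pools and 2.09, 2.48, 2.02 and 1.71 in the Sham pools. C1ql2 and Frem3 were the 2 genes past 4-fold. Signalling genes followed: the tetraspanin Tspan13 (1.91), the secreted protease neuropsin, Klk8 (1.86), and the angiotensin peptide receptor Mas1 (1.85). Mas1 varied little, from 1.78 to 2.14 in the ICSS pools and from 1.58 to 1.87 in the Sham pools.

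Calcium and transcription were represented by Cabp7 (1.74) and hippocalcin, Hpca (1.49), both calcium-binding proteins, and by Neurod6 and Neurod2 (1.54). The Wnt pathway had the ligand Wnt4 (1.69) and Rspo2 (1.56), a secreted protein that strengthens Wnt signals. Wnt4 was at 1.46, 1.36, 1.30 and 1.79 in the ICSS pools and at 1.71, 1.79, 1.80 and 2.29 in the Sham pools, so the groups overlapped. The others were the small GTPase Rerg (1.60), the endoplasmic reticulum protein Cln6 (1.59), the tight junction scaffold Tjp3 (1.56), the leucine-rich repeat gene Lrrc10b (1.54), the serotonin receptor Htr5b (1.50), Nrip3 (1.50), the protease inhibitor Cst6 (1.47), the sialyltransferase St6galnac5 (1.46) and the actin regulator Wipf3 (1.41).

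The 20 lowest named genes whose signal was below the reference in every pool ran from -5.92 to -1.94. Spp1 averaged -2.12 but was left out, because ICSS replicate 4 (0.07) and Sham replicate 1 (0.38) were above the reference. Below Pmch the next was Cyp11b1, a steroid hydroxylase of the adrenal cortex, at -3.41 (SE 0.087), with -3.29, -3.41, -3.38 and -3.60 in the ICSS pools and -3.79, -3.56, -3.40 and -2.83 in the Sham pools. The probe is a single feature, and close paralogs of this gene may share its signal. Srpk3, a kinase of splicing factors best known from muscle, was at -3.02 (SE 0.15). Tac1, the precursor of substance P in striatal neurons of the direct pathway, was at -2.63 (SE 0.078) over 10 features between -2.69 and -2.57.

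Regulators of G protein signalling were also among the lowest. Rgs9, of striatal neurons, was at -2.17, and Rgs4 at -2.15, where 7 pools lay between -2.54 and -2.19 and Sham replicate 4 at -0.84. The neurturin receptor Gfra2 was at -2.24 and the Ras exchange factor Rasgef1c at -2.22. Egr2, an early growth response factor, averaged -2.02, with -2.43, -2.40, -2.17 and -2.23 in the ICSS pools and -2.28, -2.56, -0.51 and -1.59 in the Sham pools, so that 2 Sham pools were nearer to 0 than the rest. The remaining genes were Ucma (-2.54), Grifin (-2.42), the intermediate filament peripherin, Prph (-2.02), Cdhr1 (-2.00), Glycam1 (-1.99), Cpne9 (-1.96), the cationic amino acid transporter Slc7a3 (-1.94) and Itih3 (-1.94).

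**Figure D2:**
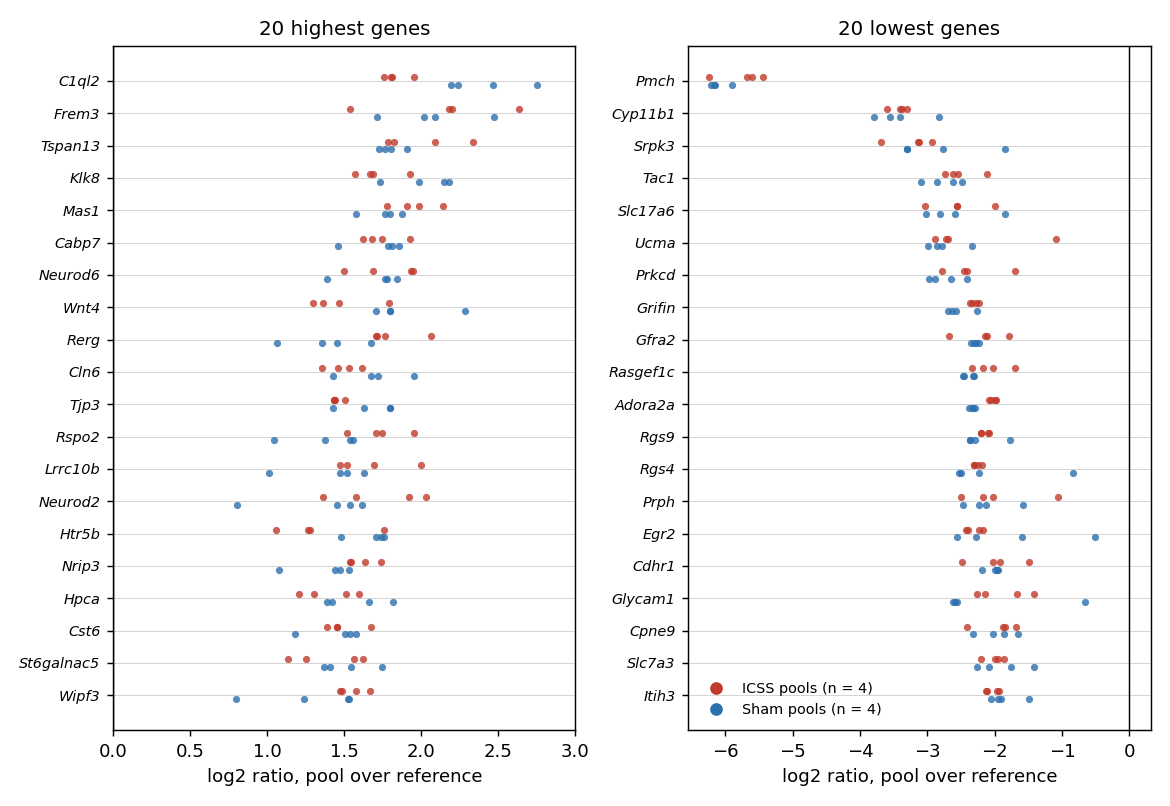
Log2 ratio of pool to reference (horizontal axes) for the 20 highest genes (left) and the 20 lowest genes (right), with 1 point per pool, ICSS in red above Sham in blue on each line. Only called genes with every pool on 1 side of 0 were eligible. By this selection all points of the 20 highest genes lie above 0 and all points of the 20 lowest under 0. Pmch stands apart at -5.92.

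Markers shared by the hippocampal fields were mostly higher. Of 9 measured, 8 were higher and 1 lower, with a median of 0.90. Over all genes and probes 17.5% were higher and 24.8% lower, with a median of -0.02. Counts of every list below are to be read beside these shares. Per pool the list's median was 0.94, 0.93, 0.75 and 0.90 in the ICSS pools and 0.98, 0.95, 0.96 and 0.79 in the Sham pools. Nr3c2, the mineralocorticoid receptor, averaged 0.90 (SE 0.032), Zbtb20, a zinc finger factor of hippocampal development, 0.62 (SE 0.045), and Cnih2, an auxiliary subunit of AMPA receptors, 0.42. The exception was the receptor tyrosine kinase Tyro3, at -0.64 (SE 0.065) and below 0 in all 8 pools.

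Each field had called members on the higher side. Of 10 dentate granule cell markers, 7 were higher and 0 lower, with a median of 0.50. They included the channel Trpc6 (0.84), C1ql3 (0.75), the opioid peptide precursor Pdyn (0.73), Stxbp6 (0.66) and Prox1 (0.26), the homeobox factor of granule cells. Pdyn was at 0.37, 0.66, 0.14 and 0.46 in the ICSS pools and at 0.80, 0.98, 0.80 and 1.68 in the Sham pools, with no overlap, and the difference between ICSS and Sham was not called (limma adjusted p = 0.213). Calb1, Tdo2 and Lct did not pass the test, at 0.10, 0.06 and -0.03.

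Of 10 markers of CA2 and CA3, 6 were higher and 1 lower, with a median of 0.29. The kainate receptor subunit Grik4 of CA3 averaged 1.16 (SE 0.056), Cpne4 1.12 (SE 0.067) and Rgs14, a scaffold of CA2 neurons, 0.97 (SE 0.050). The 3 features of Cpne4, to 2 accessions, ranged from 0.10 to 1.66. Pcp4, a calmodulin-binding protein of CA2 neurons that other brain regions also use, was at -0.87 (SE 0.053). Of 6 CA1 markers, 4 were higher and 0 lower, with a median of 0.40: Fibcd1 (0.67), Pou3f1 (0.59), Wfs1 (0.50) and Man1a1 (0.31). The CA1 median per pool was 0.13, 0.59, 0.20 and 0.20 in the ICSS pools and 0.41, 0.59, 0.46 and 0.53 in the Sham pools, and the 2 ranges overlapped.

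Thalamic markers were mostly lower. Of 19 measured, 14 were lower and 1 higher, with a median of -0.41. Besides Slc17a6 and Prkcd, the calcium-binding protein Calb2 was at -1.35 (SE 0.064), the homeobox factor Shox2 at -1.34 (SE 0.056), the receptor partner Ramp3 at -1.17 and Tcf7l2 at -0.43 (SE 0.036). Lhx9, a homeobox factor of developing thalamus, was the called exception at 0.41, above 0 in all 8 pools and lowest in Sham replicate 4, at 0.05. Of 6 habenular markers 3 were lower, among them the nicotinic subunit Chrna3 (-0.85) and the orphan receptor Gpr151 (-0.75), and Lmo3 was higher (0.22).

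Striatal and hypothalamic markers, of regions not named for the reference in the labels, were lower as well. All 13 striatal markers were lower, with a median of -1.04 and per-pool medians of -1.03, -1.11, -1.02 and -0.97 in the ICSS pools and -1.02, -1.06, -1.12 and -1.10 in the Sham pools. Besides Tac1, Adora2a and Rgs9, the list held Gpr6 (-1.72), the enkephalin precursor Penk (-1.49), Isl1 (-1.22), the phosphatase inhibitor Ppp1r1b (-1.04) and the dopamine receptors Drd2 (-0.82) and Drd1 (-0.73). Of 15 hypothalamic markers 12 were lower and 0 higher, with a median of -0.48. Pomc, a melanocortin precursor, averaged -1.51, vasopressin, Avp, -1.43, the calcitonin receptor Calcr -1.37 and oxytocin, Oxt, -1.23. The 2 features of Calcr were at -2.67 and -0.06, and those of Penk at -2.75 and -0.22. The orexin precursor Hcrt, made like Pmch in the lateral hypothalamus, was at -0.26. The tissue composition of the reference was not tested.

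Neocortical markers went both ways. In the upper layers 2 of 7 were higher, Rasgrf2 (0.81) and Mdga1 (0.30), and 2 lower, Lamp5 (-0.49) and Rorb (-0.38), with a median of -0.07, and these shares (28.6% each) lie near those over all genes and probes (17.5% and 24.8%). In the deep layers 5 of 9 were higher, with Fezf2 (0.40) and Crym (0.32) first, and 4 lower, with Ccn2 (-0.77) and Syt6 (-0.60) first, and the median was 0.10. Of 7 genes of midbrain monoamine neurons 3 were lower, led by tyrosine hydroxylase, Th (-0.71), and 0 higher. The median of this list was -0.20, -0.14 without Sham replicate 4, -0.03 in the ICSS arrays alone and -0.08 in the Sham arrays alone. Its per-pool medians, -0.09, 0.01, -0.07 and 0.03 in the ICSS pools and -0.06, 0.02, -0.07 and -0.15 in the Sham pools, lay on both sides of 0.

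**Figure D3:**
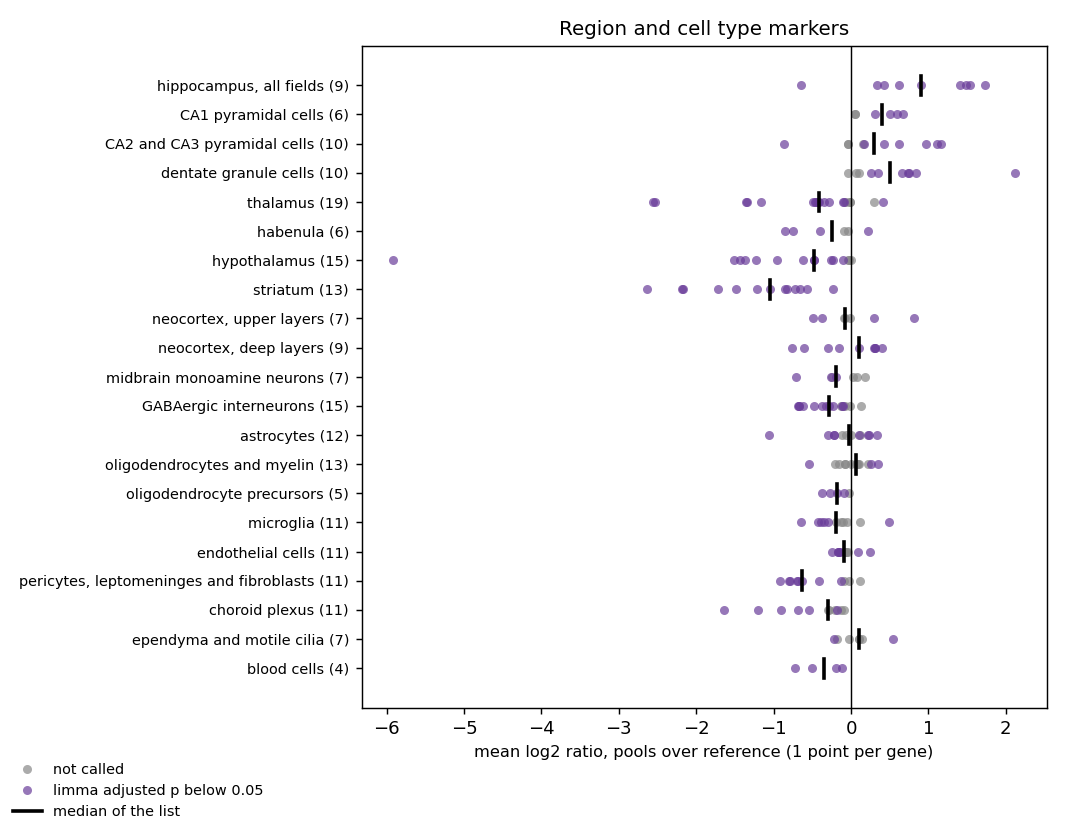
Mean log2 ratio of the pools to the reference (horizontal axis) for each measured gene of the region and cell type lists, with purple points for genes past the limma threshold, grey points for the others, a black bar at each median and the number of measured genes in brackets. The 13 striatal genes all lie below 0, and 8 of 9 markers of all hippocampal fields lie above it.

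Interneuron genes were lower. Of 15 measured, 11 were lower and 0 higher, with a median of -0.28. The peptides Vip (-0.69), Cck (-0.67) and Sst (-0.67), the vesicular GABA transporter Slc32a1 (-0.62), Pvalb (-0.48) and the GABA-synthesising enzymes Gad2 (-0.38) and Gad1 (-0.24) were among them. Sst was at -0.76, -0.59, -0.86 and -0.66 in the ICSS pools and at -0.95, -1.11, -0.59 and 0.18 in the Sham pools, with Sham replicate 4 alone above 0. Striatum and thalamic reticular nucleus also hold GABAergic neurons that use several of these genes. Npy, at 0.13, did not pass.

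Astrocyte genes were mixed, oligodendrocyte and myelin genes mostly not called, and precursor genes mostly lower. The medians of these lists were -0.03, 0.07 and -0.18. Of 12 astrocyte genes 4 were higher (33.3%, beside 17.5% over all genes and probes) and 4 lower (33.3%, beside 24.8%). The higher ones were led by the glutamate transporter Slc1a2 (0.33) and the water channel Aqp4 (0.23), the lower ones by S100b (-1.06, SE 0.13). S100b was at -0.999, -1.04, -1.05 and -1.06 in the ICSS pools and at -1.45, -1.39, -1.43 and -0.07 in the Sham pools, so Sham replicate 4 was near 0 and the other 7 pools between -1.45 and -0.999. The fourth higher astrocyte gene, Slc1a3 (0.11), lost its call without any 1 of ICSS replicates 2, 3 and 4 and Sham replicates 2, 3 and 4. Of 13 oligodendrocyte and myelin genes 2 were higher (15.4%) and 1 lower (7.69%), beside 17.5% and 24.8% over all genes and probes. The lower one was myelin basic protein, Mbp (-0.54, SE 0.11). Opalin (0.35) and Ermn (0.26) were higher, with adjusted p values of 0.0499 and 0.0442 by limma. Both calls were lost when any 1 of replicates 1, 2 and 3 of either group was left out. Of 5 precursor genes 4 were lower, led by Cspg4 (-0.37) and Pdgfra (-0.27). The call of Vcan (-0.09) was lost without any 1 of ICSS replicates 1, 2 and 4 and Sham replicates 1 and 4.

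Microglial genes were lower for the complement subunits C1qa (-0.65), C1qb (-0.43) and C1qc (-0.38), for Ctss (-0.35) and for Tmem119 (-0.30), 5 of 11 (45.5%). Itgam (0.49) was higher (9.09%), beside 24.8% lower and 17.5% higher over all genes and probes. The list's median was -0.19, -0.31 without Sham replicate 1 and -0.10 without Sham replicate 4, and the call of Itgam was lost without ICSS replicate 4. Itgam was at 0.11, 0.28, 0.56 and 0.89 in the ICSS pools and at 1.42, 0.53, 0.14 and -0.02 in the Sham pools. The list's per-pool median was -0.33, -0.42, -0.35 and -0.0032 in the ICSS pools and 0.11, -0.05, -0.47 and -0.61 in the Sham pools. For both, ICSS replicate 4 and Sham replicate 1 were the highest pools of their groups. Endothelial genes were close to 0, with 2 of 11 higher (18.2%) and 5 lower (45.5%) and a median of -0.09. Over all genes and probes 17.5% were higher and 24.8% lower. The calls of Flt1 (0.09; without ICSS replicate 1 or Sham replicate 2) and Slco1a4 (-0.16; without ICSS replicate 2 or 4 or Sham replicate 3) were lost. Genes of pericytes, leptomeninges and fibroblasts were lower in 8 of 11, with a median of -0.64, among them Igf2 (-0.91) and the collagens Col1a2 (-0.80) and Col3a1 (-0.79). The 3 features of Col1a2 ranged from -1.34 to -0.07, and the 2 of Col3a1 were at -1.61 and 0.04. The list's per-pool median was -0.70, -0.77, -0.05 and -0.23 in the ICSS pools and -0.19, -0.74, -0.66 and -0.86 in the Sham pools. It was nearest to 0 in ICSS replicates 3 and 4 and Sham replicate 1. All 4 blood cell genes were lower, with a median of -0.35, from Ahsp (-0.72) to Slc4a1 (-0.11), whose call was lost without ICSS replicate 2, Sham replicate 1 or Sham replicate 2.

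The per-pool median of choroid plexus genes had the widest range of the 36 lists, from -1.07 to 0.69. Transthyretin, Ttr, the main secreted protein of this epithelium, was at -1.24, -1.21, -0.82 and 0.31 in the ICSS pools and at 1.03, -1.11, -1.78 and -2.41 in the Sham pools. Sostdc1, a secreted inhibitor of BMP and Wnt signals, was at -2.35, -2.33, -1.49 and 0.35 in the ICSS pools and at 2.16, -2.07, -3.37 and -4.05 in the Sham pools. In both genes Sham replicate 1 and ICSS replicate 4 were above 0 and the other 6 pools below it. These pools also had the highest microglial medians of their groups, Sham replicate 1 and ICSS replicates 3 and 4 the pericyte and leptomeningeal medians nearest to 0, and the part of these cells in either result was not tested. Over 11 genes, 6 were lower and 0 higher, and the median was -0.30, or -0.50 without Sham replicate 1. The per-pool median was -0.56, -0.56, -0.18 and 0.04 in the ICSS pools and 0.69, -0.72, -0.73 and -1.07 in the Sham pools. The calls of Sostdc1 (limma adjusted p = 0.0494), Ttr (0.0477), Kcnj13 (0.0246) and Otx2 (0.0224) were lost without single pools, with adjusted p between 0.05 and 0.12. These pools were ICSS replicates 1 and 2 and Sham replicates 2, 3 and 4 for all 4 genes except that Sostdc1 and Ttr also lost theirs without ICSS replicate 3. Both were lost as well with each array centred on its median. Ependymal genes were called in 2 of 7, 14.3% in each direction, beside 17.5% higher and 24.8% lower over all genes and probes. They were Tmem212, higher (0.55, from 2 features at 0.02 and 1.08), and Spag6, lower (-0.22).

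**Figure D4:**
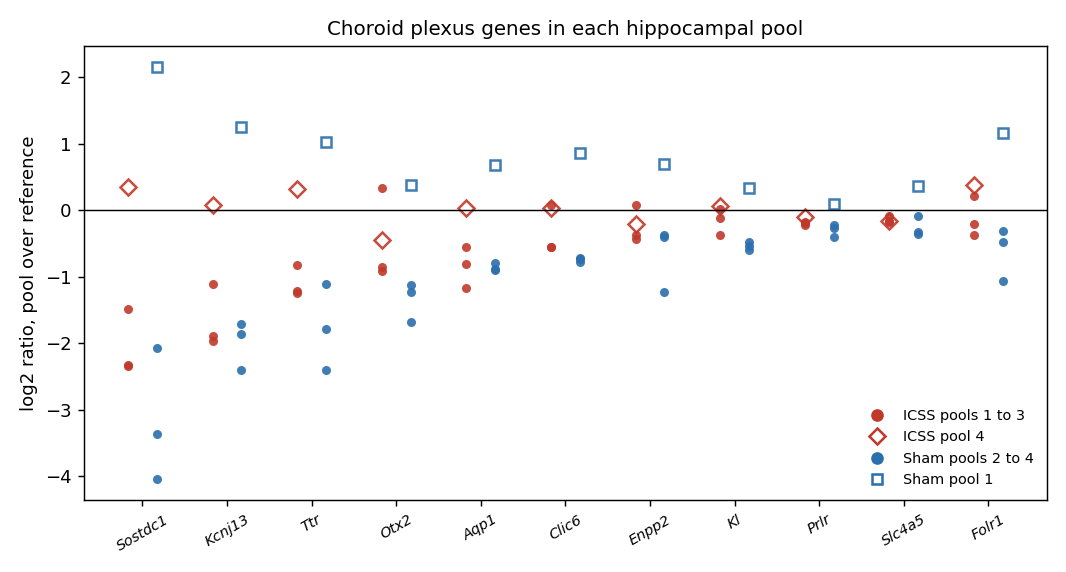
Log2 ratio of pool to reference (vertical axis) for the 11 measured choroid plexus genes, with ICSS pools in red left of Sham pools in blue. ICSS pool 4 (open diamonds) and Sham pool 1 (open squares) lie above the other pools of their group for Sostdc1, Kcnj13 and Ttr.

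Glutamate signalling genes went in both directions. Of 17 ionotropic receptor subunits 6 were higher (35.3%) and 3 lower (17.65%), with a median of 0.09. The shares over all genes and probes were 17.5% and 24.8%. Gria1, an AMPA receptor subunit, was at 0.89, 0.83, 0.55 and 0.90 in the ICSS pools and at 1.27, 1.23, 1.21 and 1.39 in the Sham pools, a mean of 1.03 (SE 0.043) over 11 features. Its groups did not overlap, every pool was above 0, and the ICSS minus Sham difference was not called (limma adjusted p = 0.0949). Grik4 (1.16), the NMDA receptor subunits Grin2a (0.67), Grin1 (0.26) and Grin2b (0.25) and the AMPA subunit Gria2 (0.55) were also higher, and Grin3b (-0.42), Grik5 (-0.33) and Grin3a (-0.30) lower. Metabotropic receptors were split 3 and 3: Grm7 (0.47), Grm2 (0.40) and Grm5 (0.37) were higher, and Grm8 (-1.32), Grm4 (-1.06) and Grm3 (-0.30) lower. Among 8 transmitter transporters, the neuronal glutamate transporter Slc1a1 (0.95), Slc17a7 (0.66), the vesicular zinc transporter Slc30a3 (0.46) and Slc1a2 were higher, and 3 were lower, led by Slc6a7 (-0.38).

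GABA receptor subunits were lower in 8 of 12 and higher in 4, with a median of -0.19. The delta subunit Gabrd, which forms receptors outside synapses in granule cells and thalamic relay neurons, was lowest at -1.31 (SE 0.059), with -1.20, -1.46, -1.48 and -1.84 in the ICSS pools and -1.17, -1.09, -1.21 and -0.99 in the Sham pools, all below 0 and overlapping. Gabra3 was at -0.73. Gabra5, the alpha subunit known for its abundance in hippocampus, was at 0.58 (SE 0.029), with 0.50 as the lowest and 0.71 as the highest pool, from 2 features to different accessions that were at -0.05 and 1.21, and Gabra2 (0.54) and Gabrb1 (0.51) were close to it. The call of Gabra4 (0.13) was lost without any 1 of ICSS replicates 2, 3 and 4 and Sham replicates 1, 2 and 3.

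Ion channel subunits went both ways. Of 31 potassium channel subunits 12 were higher (38.7%) and 15 lower (48.4%), with a median of -0.08. Over all genes and probes 17.5% were higher and 24.8% lower. Kcng1 (0.79), the inward rectifier Kcnj6 (0.47, from features at -0.05 and 0.996), Kcnq5 (0.45) and Kcnd2 (0.41), of the A-type current, were highest, and Kcnf1 (-0.79), Kcnk1 (-0.58), Kcnh3 (-0.58) and Kcnc1 (-0.54) lowest. Of 23 sodium, calcium and HCN channel subunits 7 were higher and 13 lower, with a median of -0.15. Scn3b (0.57) and Cacna2d3 (0.52) were highest. The call of Cacna1h (0.31) was lost without replicate 3 or 4 of either group. Scn1a, a sodium channel of fast-spiking neurons, was lowest at -1.01, and the thalamic T-type channel Cacna1g was at -0.41.

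Monoamine and acetylcholine receptors were lower in 15 of 27 and higher in 5, with a median of -0.17. The 5 were Htr5b (1.50), the adrenergic receptor Adra1d (1.32), the serotonin receptor Htr1a (0.54) and the muscarinic receptors Chrm3 (0.42) and Chrm1 (0.35). Chrna4, a nicotinic subunit of thalamic neurons, was at -1.90, -2.17, -1.75 and -2.19 in the ICSS pools and at -2.23, -2.23, -1.87 and -1.07 in the Sham pools, a mean of -1.93 (SE 0.12) with every pool below 0. Adra2a was at -1.04.

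Neuropeptide genes were lower in 12 of 20 and higher in 5, with a median of -0.39 that was -0.14 in the ICSS arrays alone and -0.59 in the Sham arrays alone. Nts, the neurotensin precursor, was highest at 1.03 (SE 0.079), followed by Pdyn (0.73), Tac3 (0.38), Scg2 (0.34) and Chgb (0.29). Tac1, Grp (-1.58) and Penk (-1.49) were lowest. The thyrotropin-releasing hormone gene Trh, at 0.48, did not pass.

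Kinases and calcium-binding proteins were lower in 11 of 25 (44.0%, beside 24.8% over all genes and probes) and higher in 6 (24.0%, beside 17.5%). The median was -0.04, -0.0018 without Sham replicate 1, -0.08 without Sham replicate 4 and -0.09 in the ICSS arrays alone. The protein kinase C genes differed among themselves: Prkca (0.89) and Prkce (0.85) were higher and Prkcd (-2.53) lower. Itpka, a kinase of dendritic spines (0.82), was higher, and Necab3 (-1.21) was lower. RGS genes were lower in 8 of 14 (57.1%, beside 24.8%) and higher in 2 (14.3%, beside 17.5%). The lower ones included Rgs6 (-0.77) and Rgs2 (-0.62) after Rgs9 and Rgs4, and the higher ones were Rgs14 (0.97) and Rgs10 (0.55).

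Genes of wiring and adhesion included a list of mostly higher members. Of 30 axon guidance genes 18 were higher and 3 lower, with a median of 0.20. The ephrin receptor Epha7 was highest at 1.06 (SE 0.047), with 1.20, 1.12, 1.05 and 1.07 in the ICSS pools and 1.11, 1.17, 1.04 and 0.73 in the Sham pools, all above 0. The ligands Sema5a (0.70), Slit1 (0.70) and Slit3 (0.69) and the receptors Nrp1 (0.66), Epha4 (0.64) and Robo1 (0.47) followed. The 3 lower genes were Sema3f (-1.25), the semaphorin receptor Plxnd1 (-0.88) and Sema3a (-0.65).

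Synaptic organizers were higher in 6 of 22 (27.3%), with Nptx1 (0.97), a pentraxin that clusters AMPA receptors, next to C1ql2 and C1ql3, and lower in 8 (36.4%), led by Lrrtm3 (-1.20) and Cbln2 (-0.75). The median of these genes was -0.01, beside 17.5% higher, 24.8% lower and a median of -0.02 over all genes and probes. Of 17 cadherins and protocadherins 7 were higher (41.2%, beside 17.5%) and 6 lower (35.3%, beside 24.8%). Cdh9, a cadherin of mossy fibre synapses in CA3, was highest at 1.19 (SE 0.063), followed by Pcdh8 (0.92) and Pcdh20 (0.79). Cdh6 (-1.32) and Cdh7 (-1.23) were lowest.

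Regional transcription factors went both ways. Of 31 factors 11 were higher and 16 lower, with a median of -0.11. The higher ones were led by the helix-loop-helix genes Neurod6, Neurod2, Neurod1 (1.14) and Bhlhe22 (1.07) and included the homeobox genes of the cortical primordium Emx2 (0.64) and Lhx2 (0.51). The lower ones were led by Irx2 (-1.32) and Meis2 (-1.04, SE 0.035), a factor of striatal neurons, with every pool of Meis2 between -1.21 and -0.82. Among 19 nuclear receptors 2 were higher (10.5%), Nr4a3 (0.94) and Nr3c2 (0.90), and 7 lower (36.8%), led by Nr2f2 (-1.25) and Rxrg (-1.10). These shares stand beside 17.5% higher and 24.8% lower over all genes and probes. Nr2f2 was at -1.68, -1.70, -1.25 and -1.33 in the ICSS pools and at -1.69, -1.40, -0.86 and -0.11 in the Sham pools, with Sham replicate 4 nearest to 0. The glucocorticoid receptor Nr3c1, at 0.12, did not pass.

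**Figure D5:**
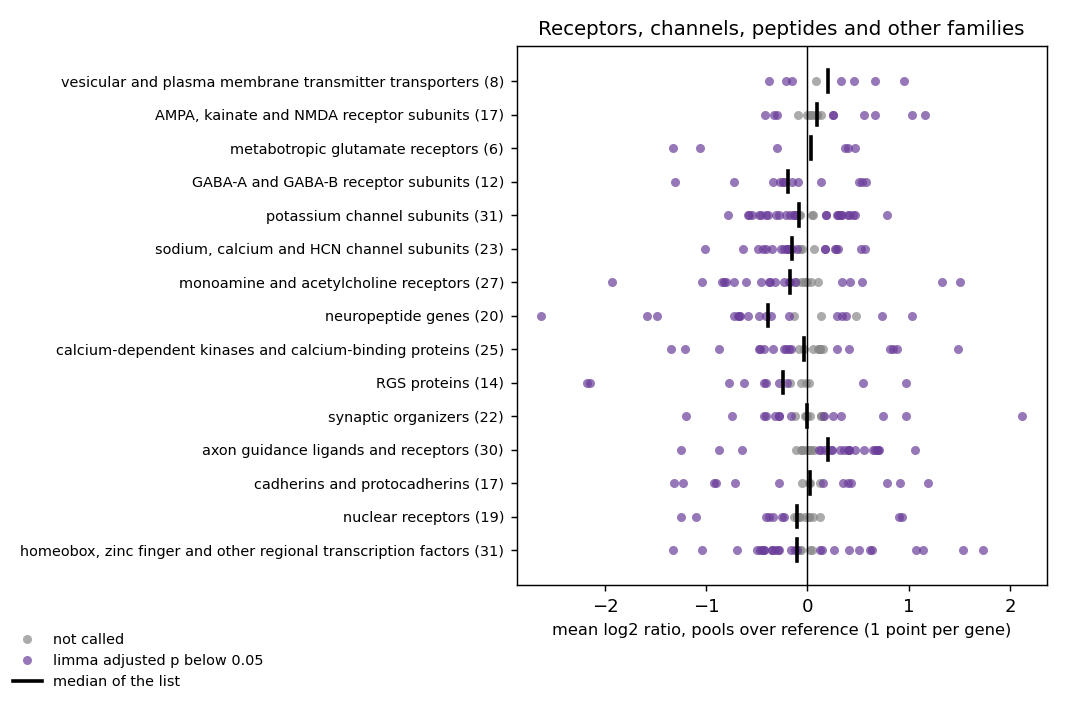
Mean log2 ratio of the pools to the reference (horizontal axis) for each measured gene of 15 functional families, with purple points for genes past the limma threshold, grey points for the others, a black bar at each median and the number of measured genes in brackets. The medians lie between -0.39 for neuropeptide genes and 0.21 for transmitter transporters.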

How the data were processed

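Total RNA (500 ng per sample) was labelled with an Agilent low-input kit, per the labels. The file deposited by the authors holds log2 ratios, 1 for each of 45220 features on each array. The submitters' processing notes name limma, with no version. No source used here states the logarithm's base, which was taken as log2, or the normalization. Spot intensities were not used, so no gene was judged expressed or not, and precision is limited by the number of arrays. Of the features, 25353 had 1 gene symbol in the platform annotation, 48 several and 19819 none listed, and 25306 matched a current gene in the GRCr8 table. Features of a gene were averaged, which gave 14871 genes and 19867 unnamed probes.

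Group means of ICSS and Sham were fitted with limma 3.58.1 in R 4.3.3, and their equal-weight mean was tested against 0, two-sided (6 residual and 3.83 prior degrees of freedom), with Benjamini-Hochberg adjustment over all 34738 units. The procedure was tested on simulated data. Lists were described by counts and medians, without a set test, and some genes are in more than 1 list. Of 522 list genes, 465 were measured. The members and lists were chosen with earlier results of these data known. Named were the 20 highest and 20 lowest called genes with all 8 pools on 1 side of 0, up to 4 called members of each list in each direction by size, filled to 2 by p, and the 6 markers. Other list members, the 5 exceptions among genes past 2-fold, and genes of single features far from the rest were named after their values were seen. Deviations from the group means correlated at -0.0529, 0.0578, 0.0429 and 0.0466 for same-numbered pools, and at -0.247 to 0.179 for the other pairs. With so wide a spread these values cannot decide whether numbers paired the samples. The main fit did not pair them. The labels call the pools biological replicates. Alternatives covered array scaling, how features are joined, moderation, weights, the size tested against, single groups, a replicate block and single pools left out.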

Additional observations from a re-analysis of the deposited data

Results flagged for a closer look

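Of 432 groups of 4 pools tested among the 216 named genes, 29 (6.71%) held a pool whose gap to the nearest other pool was large against the range of its group. Independent groups of normal values would give about 1 in 20. The named genes were chosen by their values and share the same 8 arrays, so that rate is only a rough guide. Sham replicate 4 was the flagged pool for 11 genes, ICSS replicate 4 for 8, Sham replicate 1 for 4, ICSS replicate 2 for 3, ICSS replicate 3 for 2 and Sham replicate 3 for 1. The cause was not tested.

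In Sham replicate 4 the values were 1.46 for Cabp7, 2.29 for Wnt4, -1.77 for Rgs9, 0.0537 for Lhx9, -1.38 for Gpr6, 0.187 for Tle4, -0.497 for Th, -0.0725 for S100b, -0.458 for Opalin, -0.214 for Tmem212 and -0.165 for Lrrc4c. In the other Sham pools S100b was between -1.45 and -1.39, and Tmem212 between 0.53 and 0.63.

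In ICSS replicate 4 the values were 2.06 for Rerg, 1.5 for Tjp3, -0.249 for Ccn2, -0.709 for Ddc, 0.768 for Slc17a7, -1.32 for Grp, 0.767 for Rgs10 and -1.6 for Cdh6. In Sham replicate 1 they were -0.657 for Glycam1, -0.0853 for Tbr1, -0.594 for Gjb6 and -0.888 for Sema3a. The other Sham pools had Glycam1, an endothelial and mammary mucin, between -2.61 and -2.55.

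In ICSS replicate 2 the values were -0.187 for Esam, -0.133 for Alas2 and -0.948 for Kcnc1. In ICSS replicate 3 they were -1.09 for Ucma, against -2.88 to -2.69 in the other ICSS pools, and 0.929 for Rgs14. In Sham replicate 3 the value was 0.991 for Rasgrf2.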

How the results depend on the processing

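The count of 14696 called genes and probes was 14556 with arrays centred on their medians (6993 higher, 7563 lower), 14684 with equal array spread, 14870 after quantile normalization, 14591 with the median of a gene's features, 15498 with array weights, 14669 with robust moderation, 14155 with 1 mean over all arrays and 11624 in the ICSS arrays alone. Single features gave 19529 calls. It was 6842 for named genes only (2961 higher, 3881 lower, 69 and 141 past 2-fold), which tests fewer units, and 8913 in the Sham arrays alone (3664 higher, 5249 lower), with fewer arrays. Tested against a log2 ratio of 0.5 it was 1370 (501 higher, 869 lower), and 103 of 216 named genes stayed past the threshold. Kdr (-0.00877) and Gabra4 (-0.0666) turned negative in the Sham arrays alone, and the cause was not tested. Further list medians moved by at least their spread between pools. In the ICSS arrays alone dentate granule cells were at 0.377 and thalamus at -0.338. Sodium, calcium and HCN channels were at -0.226 there and synaptic organizers at -0.0795. Cadherins and protocadherins were at -0.0915 in the ICSS arrays alone and 0.172 in the Sham arrays alone. Regional transcription factors were at -0.154 in the Sham arrays alone. Without single pools the count ranged from 13016 to 14726 (5501 to 6205 higher, 7515 to 8521 lower), 2-fold calls from 273 to 288 higher and from 461 to 494 lower, and named genes past the threshold from 205 to 211. Without both ICSS replicate 4 and Sham replicate 1, an alternative chosen after seeing the data, 12883 were called. The replicate block gave 14241 calls (5976 higher, 8265 lower) and 214 named genes past the threshold, losing Sostdc1 and Ttr. Among named genes, centring on the medians lost Sostdc1, Ttr, Slc4a1 and Vcan, robust moderation Ermn, Opalin, Kcnj13, Otx2, Sostdc1 and Ttr, 1 mean over all arrays Ermn, Gabra4, Kdr and Slc1a3, equal array spread Opalin, quantile normalization Slc1a3, and array weights and the median of features Vcan. Signal over background was not used, so dim features may be among the calls.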

Other observations

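Unnamed probes held most of the highest ratios and were 19867 of the 34738 units. They were not averaged as the features of a gene were, so a sequence printed more than once would count each time. Of 46 units called at least 4-fold higher in hippocampus, 44 were probes with no gene listed in the annotation, and 44 unnamed probes stood above C1ql2, the highest named gene. The highest was at 3.09, and 6 lay within 0.2 of it, with single pool values between 2.67 and 3.35. Whether any of them is a control spot is not known here. On the lower side 49 of 66 units past 4-fold were unnamed.

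A single pool held 4 features far from the rest. Gpd1l1, Nek9, Src and 1 unnamed probe had log2 ratios between 5.34 and 5.72 in Sham replicate 4, while the other 7 pools lay between -0.38 and 0.43 for them. Of the features of the other pools, 0 were above 5.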
